A study of Homo sapiens with 9 samples.

Results

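A set of 9 genes of the chemokine and interleukin families, CXCL8, CXCL1, CXCL2, CXCL3, CXCL16, CCL20, IL18, IL32 and IL1A, were followed in HCT116 cells, an established human colorectal carcinoma line, after transfection of siRNA against ORM1. The 9 members were taken by symbol from the 61806 gene identifiers of the count table, and all 9 were among the 20932 genes that had enough counts to be tested. They were chosen by the log2 change of CXCL8 against control, one of the largest falls shared by both ORM1 siRNAs, so each value against control is given below as a description without a test, and only the comparison of siRNA 1 with siRNA 2 was tested for the members. ORM1 encodes orosomucoid 1, an acute-phase glycoprotein of blood plasma. There were 3 libraries from cells given control siRNA, 3 from cells given ORM1 siRNA 1 and 3 from cells given ORM1 siRNA 2, all from total RNA of cells transfected with the same lipid reagent in the same serum-containing medium, and all carrying the same batch entry, day 3. The treatment entry of each sample separates control siRNA from the ORM1 siRNAs, but the protocol text of all 9 samples, controls included, speaks of ORM1 siRNA only, so the control group rests on the titles and that entry. No group of untransfected cells, no batch entry other than day 3 and no added cytokine or other stimulus is given in the labels. The entry day 3 is not read here as a time after transfection. The labels do not say whether the 3 libraries of a group came from separate cultures, so the p-values below cover no more than the scatter among these libraries, possibly technical.

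Chemokines are small secreted proteins that guide migrating cells through receptors on their surface, and interleukins carry signals between immune and epithelial cells. Gut epithelium makes neutrophil attractants such as CXCL8 and CXCL1 and the lymphocyte and dendritic cell attractant CCL20, and their genes are classical targets of NF-kB, a family of transcription factors held in the cytoplasm by inhibitor proteins such as the product of NFKBIA. IL18 and IL1A belong to the interleukin-1 family and are made as precursor proteins. The mRNAs of many chemokines and cytokines are short-lived because AU-rich words in the 3' UTR recruit decay factors such as the product of ZFP36.

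The libraries held 60698684 to 71431723 counts each. ORM1, the targeted gene, had 63, 56 and 59 counts in the control libraries, 0, 0 and 5 with siRNA 1 and 8, 0 and 12 with siRNA 2. Its near-identical neighbour ORM2 had 38, 39 and 66 counts in control, 19, 8 and 0 with siRNA 1 and 0, 8 and 14 with siRNA 2, and how reads shared by the pair were counted is not given in the sources used here. Of 12 colon epithelial markers, CDX1 was at 0 in all libraries, and the markers summed to 4307 to 4607 CPM (TMM-scaled counts per 1000000 counts) in control, 3651 to 3823 with siRNA 1 and 3695 to 3896 with siRNA 2. Single markers went both ways. By the test described below, EPCAM and CDH1 were called higher than control with each siRNA, and KRT20 with siRNA 1. KRT8, KRT18, KRT19 and ELF3 were called lower with each, and the others were not called. Of 17 white blood cell markers 6 were at 0 in all 9 libraries, among them CD3E, MS4A1 and S100A8, and the sum was 11.6 to 13.4 CPM in control, 12.9 to 15.6 with siRNA 1 and 7.4 to 11.4 with siRNA 2, most of it CD68. Of 12 fibroblast and endothelial markers, most of the sum was COL1A1, and it was 52.8 to 60.6 CPM in control, 49.3 to 51.5 with siRNA 1 and 42.4 to 45.4 with siRNA 2. CSF1R of the white blood cell markers and COL1A1 were called lower than control with each siRNA, and no other marker of these sets was called against control. Between the siRNAs, CDH1, KRT20 and CD68 were called higher and KRT8 lower with siRNA 1. The part of these marker differences in the results below was not tested. In bulk RNA, fewer cells expressing a gene and less RNA of it per cell cannot be told apart.

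CXCL8 and the 3 other attractants of its cluster on chromosome 4 shared a 9-base word at nearly the same distance from the RefSeq start site. The word, GGAATTTCC, is a form of the NF-kB site. It was searched on both strands of the RefSeq promoter windows (GRCh38.p14, 250 bases before to 50 after the start site, which is +1). RefSeq windows were matched for 7 of the 9 members, and CXCL16 and IL18 were not matched. The word began at -91 in CXCL8, -78 in CXCL1, -77 in CXCL2 and -78 in CXCL3, each time on the strand of the gene. These distances hold for the RefSeq start sites only. By the GENCODE coordinates given below, CXCL2 begins at 74099293 and CXCL3 at 74038807, so that the stretches shown lie inside these genes. CXCL8 begins at 73740506 there, nearer to its word. The 30 bases around it are shown because they carry what the 4 genes share, with the word in capitals and the gene's strand in brackets.
CXCL8, chr4:73740468-73740497 (+): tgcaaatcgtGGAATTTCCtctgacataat
CXCL1, chr4:73869305-73869334 (+): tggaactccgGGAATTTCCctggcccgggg
CXCL2, chr4:74099253-74099282 (-): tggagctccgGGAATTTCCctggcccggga
CXCL3, chr4:74038748-74038777 (-): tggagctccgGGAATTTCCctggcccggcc
CXCL1 and CXCL2 were identical at 28 of these 30 bases, CXCL2 and CXCL3 at 28 and CXCL1 and CXCL3 at 27, whereas CXCL8 matched the other 3 at 16 to 17. Of all 35116 promoter windows, 162 (0.461%) held the word. The word searched is the exact form that these 4 genes carry, and other forms of the NF-kB site were not searched. The share therefore holds for these letters only, and nothing is read from it. It was not present in the windows of CCL20, IL1A and IL32, which says only that these letters do not occur there.

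The whole window of CXCL8 is shown because 2 of the other words searched also lie in it, TGANTCA, a form of the AP-1 site, from -137, and TATAAA, the TATA box, from -31. Capitals mark GGAATTTCC and TATAAA.
CXCL8, chr4:73740319-73740618 (+): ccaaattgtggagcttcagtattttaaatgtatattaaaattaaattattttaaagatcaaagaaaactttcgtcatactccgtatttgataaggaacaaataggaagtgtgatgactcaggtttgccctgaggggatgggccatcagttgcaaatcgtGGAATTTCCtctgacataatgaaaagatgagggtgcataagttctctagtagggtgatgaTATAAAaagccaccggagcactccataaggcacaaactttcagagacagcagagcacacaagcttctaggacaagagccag
TATAAA was also found from -29 in CCL20 and from -239 in IL1A, and it occurs in 11.5% of all windows. TGANTCA was also found in both windows of IL1A and occurs in 7.71% of all windows. TTGCNNAA, a form of the C/EBP site, was found among the 7 members with a window only in CXCL2, on the opposite strand from -188, and occurs in 10.5% of all windows. Elsewhere this says only that these letters do not occur, and other forms of the site were not searched. The CXCL8 window holds ttgcaaat shortly before GGAATTTCC, which differs from TTGCNNAA in its last base. No 2 of these matches overlapped within a window. A match is a description of the sequence and shows neither binding nor use.

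**Figure D1:**
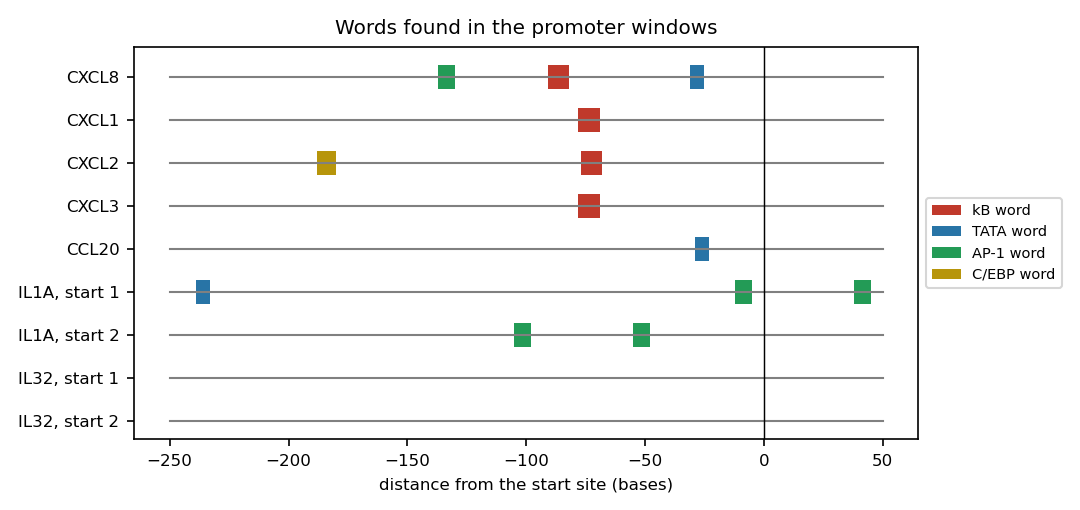
Words found in the RefSeq promoter windows of the 7 matched members. The x axis is the distance from the RefSeq start site in bases, each row is 1 window and the coloured marks are the words named in the legend. The GGAATTTCC marks of CXCL8, CXCL1, CXCL2 and CXCL3 lie between -91 and -77.

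The AU-rich decay word ATTTA divided the members. Its DNA letters were counted on the sense strand of the 3' UTR of 1 GENCODE release 29 transcript per gene, with overlapping copies counted. CXCL2 held 10 copies, CXCL8 9, CXCL3 7, CXCL1 and IL1A 5 each, CCL20 3 and CXCL16 1, and IL18 and IL32 held 0. The densest 30 bases of the 5 members with the most copies are shown, with the copies in capitals.
CXCL2: aagtcttctATTTATTTATTTATTTATTTA
CXCL8: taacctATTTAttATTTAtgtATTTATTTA
CXCL3: ttacgagggttctacttATTTAtgtATTTA
CXCL1: cttaggagaagtcttctATTTATTTATTTA
IL1A: tATTTAtatatgtATTTAtaaatatATTTA
Shares were taken among UTRs within 20% of the same length, the member's own UTR included. At least as many copies as in CXCL2 were held by 0.0484%, as in CXCL3 by 0.841%, as in CXCL8 by 2.55% and as in CXCL1 by 5.48%. For CCL20 this share was 9.93%, for IL1A 18.3% and for CXCL16 73.6%. The longer word TATTTAT occurred 8 times in CXCL2, 4 times in CXCL8 and CXCL1, 3 times in CXCL3 and IL1A and 1 time in CCL20.

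CXCL8 (ENSG00000169429, chr4:73740506-73743716, plus strand, coordinates here and below from GENCODE release 29 on GRCh38), which attracts neutrophils through CXCR1 and CXCR2, was lower in every ORM1 siRNA library than in any control library, and by nearly the same factor with either siRNA. It had 12.2, 14.2 and 14.8 CPM in the control libraries, from 808, 889 and 977 counts, then 4.06, 3.46 and 3.48 CPM with siRNA 1 and 4.30, 3.37 and 3.23 CPM with siRNA 2. The lowest control library stood well above the highest siRNA library, and the siRNA groups overlapped each other. The mean level was 13.8 ± 1.35 CPM in control (SD, n = 3), 3.66 ± 0.339 with siRNA 1 and 3.63 ± 0.585 with siRNA 2, which is 26.6% and 26.4% of control. The log2 change against control was -1.91 (SE 0.14) with siRNA 1 and -1.92 (SE 0.14) with siRNA 2. Among the 11770 genes with an official symbol whose mean reached 5 CPM in some group, this was the second and the third lowest change, in that order. That is how the gene was chosen.

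**Figure D2:**
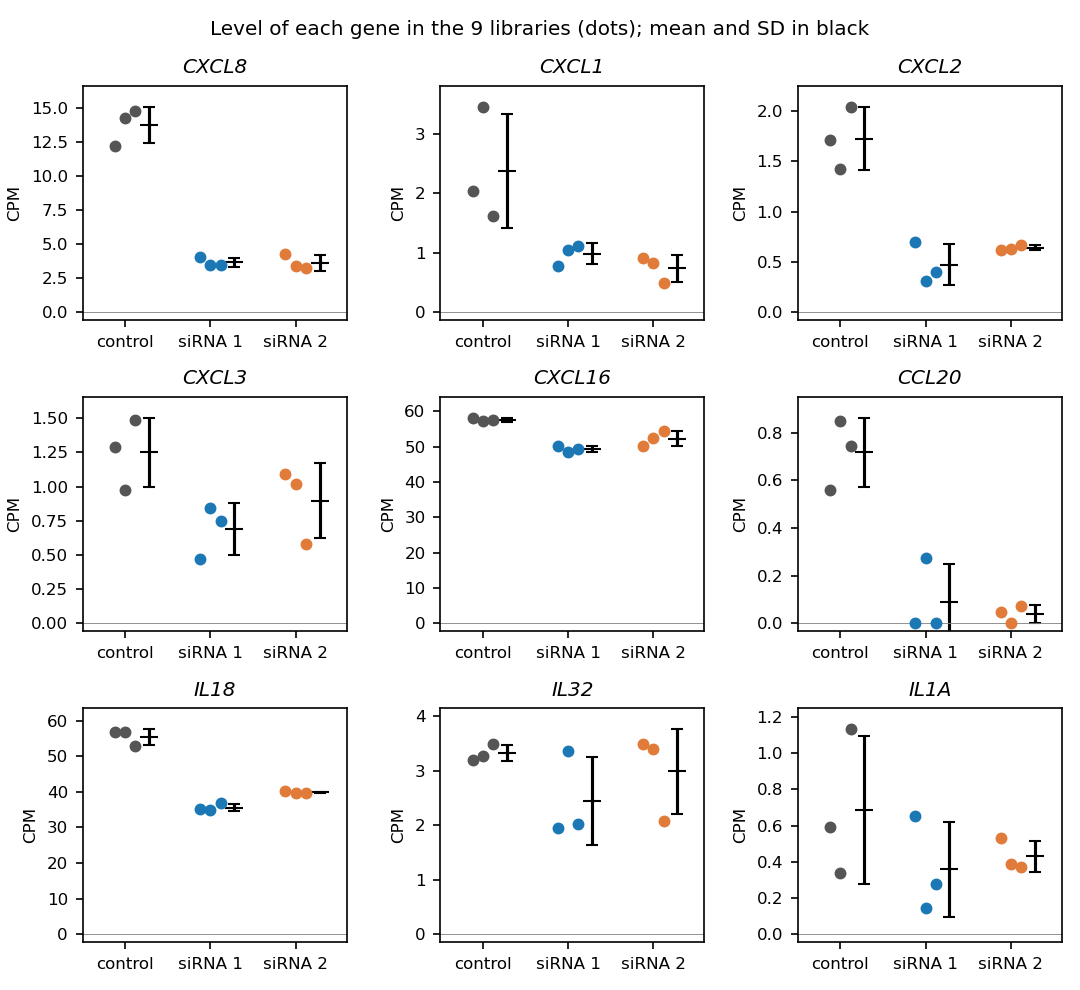
Level of each of the 9 members (y axis, CPM, from 0) in each library (dots), by group on the x axis, with the mean and SD of the 3 libraries in black. Lower error bars that would pass below 0 are cut at the axis. CXCL8, CXCL1, CXCL2, CXCL16, CCL20 and IL18 have all 3 control libraries above all 6 siRNA libraries.

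CXCL1, CXCL2 and CXCL3, the closely related neutrophil attractants that signal through CXCR2, were measured at low counts, and their control libraries varied more than those of CXCL8. CXCL1 (ENSG00000163739, chr4:73869393-73871242, plus strand) had 2.04, 3.46 and 1.62 CPM in control, 0.782, 1.04 and 1.12 with siRNA 1 and 0.909, 0.824 and 0.484 with siRNA 2. All control libraries lay above all siRNA libraries, although control library 2 alone held 216 of the counts against 135 and 107 in the others. The mean was 41.3% of control with siRNA 1 and 31.1% with siRNA 2, with log2 changes of -1.27 (SE 0.32) and -1.68 (SE 0.33). Without control library 2 the siRNA 1 change was -0.90.

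CXCL2 (ENSG00000081041, chr4:74097035-74099293, minus strand) had 1.71, 1.43 and 2.05 CPM in control, 0.701, 0.315 and 0.398 with siRNA 1 and 0.621, 0.629 and 0.668 with siRNA 2. Again no siRNA library reached a control library, and the log2 changes were -1.88 (SE 0.31) and -1.43 (SE 0.30), or 27.3% and 37.0% of control. CXCL3 (ENSG00000163734, chr4:74036589-74038807, minus strand) had 1.29, 0.978 and 1.48 CPM in control, 0.472, 0.844 and 0.751 with siRNA 1 and 1.09, 1.02 and 0.583 with siRNA 2. For CXCL3 the siRNA 1 libraries lay below control but 2 siRNA 2 libraries lay above the lowest control library. Its log2 changes were -0.85 (SE 0.32) and -0.48 (SE 0.31). These 3 genes are near-identical in places, and of all stretches of 31 bases in its exons CXCL1 shared 13% with CXCL2 and 3.16% with CXCL3, and CXCL2 shared 13.6% with CXCL3. CXCL8 shared none with any other member. How reads in the shared stretches were counted is not given in the sources used here, so the split of counts among CXCL1, CXCL2 and CXCL3 is uncertain.

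CCL20 (ENSG00000115009, chr2:227805739-227817564, plus strand), the ligand of CCR6, was nearly undetected with either ORM1 siRNA. It had 37, 53 and 49 counts in control, 0, 19 and 0 with siRNA 1 and 3, 0 and 5 with siRNA 2. The 19 counts of siRNA 1 library 2 set it apart from the other siRNA libraries, yet it stayed below every control library. In CPM the mean was 0.717 ± 0.146 in control (SD, n = 3), 0.0906 ± 0.157 with siRNA 1 and 0.0389 ± 0.0360 with siRNA 2, or 12.6% and 5.42% of control. A level of 3 counts, the limit that a count of 0 allows, is 0.0427 to 0.0489 CPM in these libraries. This limit takes each count as a separate fragment, which need not hold here, so the true limit may be higher. The fitted log2 changes were -2.93 (SE 1.09) and -4.13 (SE 1.21), and with libraries at 0 they depend on the fit. The siRNA 1 change was -4.74 in limma-voom and -8.56 without siRNA 1 library 2, when both remaining libraries were at 0. CCL20 passed the filter on low counts through its control libraries.

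CXCL16 (ENSG00000161921, chr17:4733526-4739922, minus strand), a chemokine that is made as a membrane protein and binds CXCR6, differed from control by much less than CXCL8. It had 58.2, 57.2 and 57.5 CPM in control, 50.1, 48.4 and 49.3 with siRNA 1 and 50.05, 52.3 and 54.4 with siRNA 2. The control libraries were tightly grouped and all above the siRNA libraries. The mean was 85.5% and 90.7% of control, with log2 changes of -0.23 (SE 0.04) and -0.14 (SE 0.04). MED11, on the opposite strand, overlaps CXCL16 and had 243 to 560 counts a library, against 3073 to 3847 for CXCL16. Whether counting used the strand is not given in the sources used here.

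IL18 (ENSG00000150782, chr11:112143251-112164117, minus strand), an interleukin-1 family cytokine that epithelia hold as a precursor cleaved by caspase-1, had 56.8, 56.8 and 52.9 CPM in control, 35.03, 34.9 and 36.8 with siRNA 1 and 40.1, 39.7 and 39.7 with siRNA 2. The 3 groups did not overlap, with control highest and siRNA 1 lowest. The mean was 55.5 ± 2.25 CPM in control (SD, n = 3), 35.6 ± 1.05 with siRNA 1 and 39.8 ± 0.215 with siRNA 2, or 64.1% and 71.8% of control. The log2 changes were -0.64 (SE 0.04) and -0.48 (SE 0.04). The gene AP002884.3 overlaps it on the opposite strand and had 0 to 12 counts.

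IL1A (ENSG00000115008, chr2:112773915-112784590, minus strand), the alarm cytokine interleukin-1 alpha released from damaged cells, had 0.590, 0.337 and 1.14 CPM in control, 0.652, 0.143 and 0.280 with siRNA 1 and 0.530, 0.389 and 0.370 with siRNA 2. The groups overlapped, and control library 3 was highest. Its log2 changes were -0.95 (SE 0.56) and -0.68 (SE 0.55), and without control library 3 they were -0.38 and -0.11, while without siRNA 1 library 1 the siRNA 1 change was -1.69. IL32 (ENSG00000008517, chr16:3065297-3082192, plus strand), a cytokine that induces TNF in monocytes, had 3.19, 3.27 and 3.48 CPM in control, 1.94, 3.36 and 2.02 with siRNA 1 and 3.49, 3.39 and 2.08 with siRNA 2. Here 2 siRNA 1 libraries and 1 siRNA 2 library were low, and the other 3 siRNA libraries lay within or at the edge of the control range. Its log2 changes were -0.44 (SE 0.24) and -0.15 (SE 0.24), and both moved with single libraries. The siRNA 1 change was -0.74 without siRNA 1 library 2, -0.30 without library 1 and -0.32 without library 3, and the siRNA 2 change turned to 0.05 without siRNA 2 library 3.

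All 9 members had a lower mean with each siRNA than in control, although IL32 did not without siRNA 2 library 3 (0.05). In 6 of the 9, CXCL8, CXCL1, CXCL2, CXCL16, CCL20 and IL18, all 3 control libraries lay above all 6 siRNA libraries. The same held for 2621 of the 20932 genes tested (12.5%), and nothing is read from the members' count because they were chosen with their fall against control in view. The median log2 change of the members was -0.95 with siRNA 1 and -0.68 with siRNA 2, beside 0.01 and 0.00 over all genes tested. The comparisons share the 3 control libraries.

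**Figure D3:**
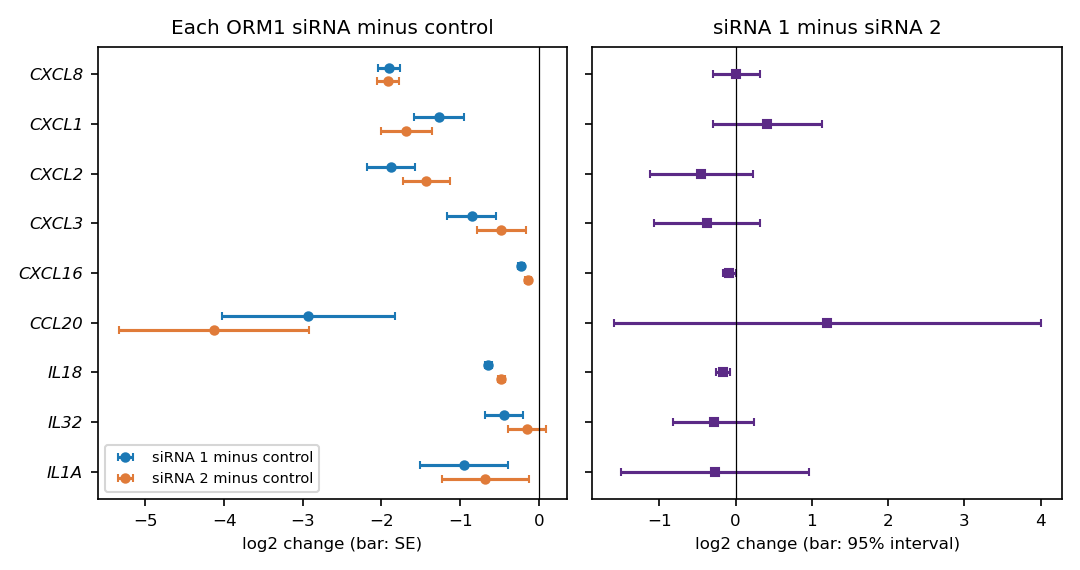
Log2 changes of the 9 members (rows). The left panel gives each ORM1 siRNA minus control with the SE as a bar, as a description, and the right panel gives siRNA 1 minus siRNA 2 with its 95% interval, as tested. CXCL8 sits at -1.91 and -1.92 on the left, and on the right IL18, at -0.16, is the member whose interval lies clear of 0.

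Between the siRNAs, a comparison that holds no control library and that did not serve to choose the members, 1 of the 9 was called. Called means an adjusted p below 0.05 in the quasi-likelihood test of edgeR, adjusted by Benjamini-Hochberg over all 20932 genes, by which 9.83% of genes were lower and 8.09% higher with siRNA 1 than with siRNA 2. IL18 was lower with siRNA 1 by a log2 of -0.16 (SE 0.04, 95% interval -0.26 to -0.07, adjusted p = 0.022), with all 3 siRNA 1 libraries below all 3 siRNA 2 libraries. Over the 18 alternatives its adjusted p ranged from 0.0094 to 0.084, and it passed the threshold neither with scaling by total count only (0.052) nor without siRNA 1 library 1 (0.074), siRNA 1 library 2 (0.084), siRNA 2 library 1 (0.054) or siRNA 2 library 3 (0.053). The other 8 members were not called, none of them at an unadjusted p below 0.05. CCL20 entered this test only because its control libraries passed the filter on low counts. With the siRNA groups fitted alone it was not tested, so nothing is read from its lack of a call or from its interval. For the members besides CCL20 the intervals show what difference these libraries leave room for.

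For CXCL8 the difference between the siRNAs was 0.01 on the log2 scale, with a 95% interval of -0.29 to 0.32 (adjusted p = 0.97), the narrowest interval among the 4 clustered attractants. For CXCL1 it was 0.41 (-0.30 to 1.13), for CXCL2 -0.45 (-1.12 to 0.23) and for CXCL3 -0.38 (-1.07 to 0.32), and each of these intervals reaches past 1 log2 unit on 1 side. For CXCL16 it was -0.09 (-0.17 to 0.00, adjusted p = 0.18). For IL32 it was -0.29 (-0.82 to 0.25) and for IL1A -0.27 (-1.51 to 0.96). For CCL20 it was 1.2 (-1.60 to 4.0), and it was -4.44 without siRNA 1 library 2, so no direction can be given. The median over the members was -0.16, beside 0.01 over all genes tested.

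The order of the levels was compared per length, as CPM per kb of merged exons in GENCODE release 29. In control, IL18 (21.1 ± 0.856) and CXCL16 (20.6 ± 0.193, SD, n = 3) were highest, with libraries that overlapped. CXCL8 followed at 6.05 ± 0.594 and was separate from its neighbours in the order. Below it came CXCL1 (1.83), CXCL2 (1.15) and IL32 (1.03), each overlapping the next, and then CXCL3 (0.563), CCL20 (0.450) and IL1A (0.324), also each overlapping the next. With siRNA 1 the order was CXCL16 (17.6), IL18 (13.5), CXCL8 (1.61), IL32 (0.760), CXCL1 (0.758), CXCL2 (0.314), CXCL3 (0.311), IL1A (0.169) and CCL20 (0.0568 CPM per kb). With siRNA 2 it was CXCL16 (18.7), IL18 (15.2), CXCL8 (1.60), IL32 (0.929), CXCL1 (0.570), CXCL2 (0.426), CXCL3 (0.405), IL1A (0.202) and CCL20 (0.0244 CPM per kb). CXCL16 was separate from IL18, IL18 from CXCL8 and CXCL8 from IL32 in both siRNA groups. With siRNA 1, CXCL1 was separate from CXCL2, and IL32 and CXCL1, CXCL2 and CXCL3, CXCL3 and IL1A, and IL1A and CCL20 overlapped. With siRNA 2, IL32 and CXCL1, CXCL1 and CXCL2, and CXCL2 and CXCL3 overlapped, and IL1A was separate from both of its neighbours.

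CXCL8, CXCL1, CXCL2 and CXCL3 lie within 358.8 kb of chromosome 4. Their summed level was 8.68, 10.3 and 9.79 CPM per kb in the control libraries, 3.07, 2.92 and 3.00 with siRNA 1 and 3.50, 3.00 and 2.50 with siRNA 2. CXCL8 made up 62.0%, 60.7% and 66.5% of that sum in control, 58.2%, 52.2% and 51.0% with siRNA 1 and 54.1%, 49.5% and 56.8% with siRNA 2. Its share was thus lower in each siRNA library than in each control library, by a smaller margin than its level.

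The profiles most like that of CXCL8 were sought over the 9 libraries by the root mean square difference of log2(CPM + 0.5), after each gene was centred on its own mean. The search covered 11767 genes with an official symbol and a mean of at least 5 CPM in some group. The nearest were RPE65 (0.270), SLC4A8 (0.310), BIRC3 (0.330), ADAM32 (0.338) and ITGAX (0.339). BIRC3, an inhibitor of apoptosis protein, had 28.8, 26.9 and 28.1 CPM in control, 11.3, 12.3 and 12.6 with siRNA 1 and 12.5, 11.9 and 12.6 with siRNA 2. RPE65, the retinoid isomerase of the retinal pigment epithelium, had 11.7, 11.6 and 11.2 CPM in control, 4.48, 4.51 and 5.08 with siRNA 1 and 4.46, 3.97 and 3.93 with siRNA 2. Both had a control group clear of both siRNA groups. The search for profiles like that of CXCL8 favours such genes, so nothing is read from it. The other members were ranked against the same genes of at least 5 CPM, and for CXCL1, CXCL2, CXCL3, CCL20 and IL1A, whose levels are low, the added 0.5 compresses the changes, so that their distances and ranks depend on it. CXCL2 was at a distance of 0.387 and CCL20 at 0.391, each with 9 genes nearer to CXCL8, and CXCL1 was at 0.457 with 25 genes nearer. IL18 was at 0.601, CXCL3 at 0.678, IL1A at 0.717, IL32 at 0.757 and CXCL16 at 0.769, with 190 to 2227 genes nearer.

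**Figure D4:**
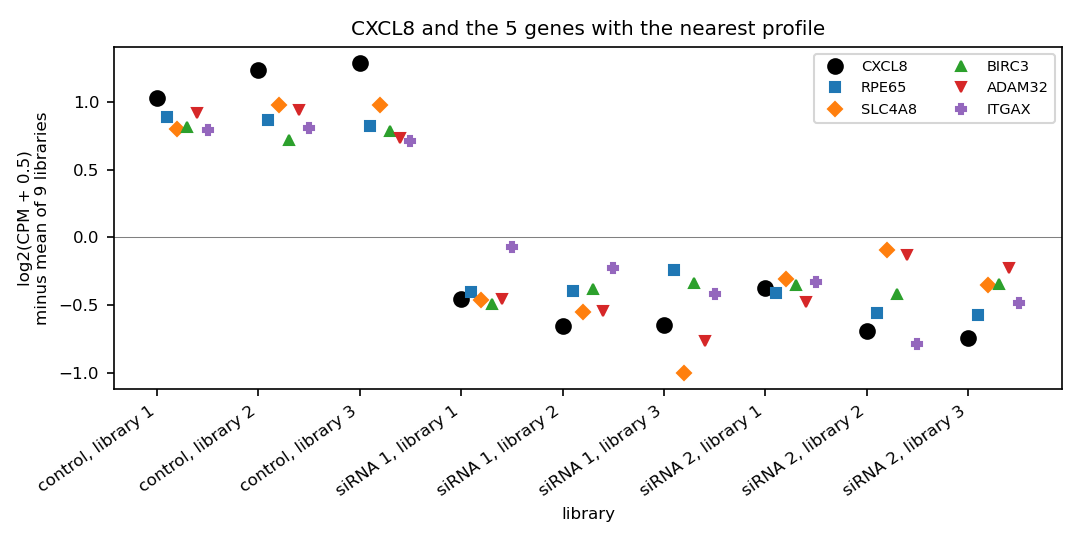
CXCL8 (black dots) and the 5 genes with the nearest profile, as log2(CPM + 0.5) minus the gene's mean over the 9 libraries (y axis), by library (x axis, with the genes of a library set side by side). In each of the 6 genes the 3 control libraries lie above 0 and the 6 siRNA libraries below it, which the choice of the genes by likeness favours.

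Most other ligands of these families were at or near 0 in these libraries. None of 15 other CXC, XC and CX3C chemokines had enough counts to be tested: 10, CXCL5, CXCL6 and CXCL10 among them, were at 0 in all 9 libraries and no library held more than 8 counts of any. Of 23 other CC chemokines, 12 were at 0 and 2 were tested, with 0 called in either direction in any comparison by edgeR, DESeq2 or limma-voom and 0 at an unadjusted p below 0.05. Of 9 other interleukin-1 family ligands, IL1B was at 0 in every library and only IL1RN, the receptor antagonist, was tested. It was not called by any of these tools, nor at an unadjusted p below 0.05, and had 0.363, 0.642 and 0.373 CPM in control, siRNA 1 and siRNA 2.

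Of 24 other interleukins, colony-stimulating factors and related cytokines, 14 were tested. Against control, 1 rose and 3 fell with siRNA 1, and 1 rose and 3 fell with siRNA 2, where 15.7% of all genes tested were higher and 14.8% lower with siRNA 1, and 14.2% higher and 12.6% lower with siRNA 2. Their median log2 change was -0.30 and -0.39. Between the siRNAs IL12A was called, higher with siRNA 1 (3.61 CPM), where 8.09% of all genes tested were higher and 9.83% lower. The call of IL12A was lost in 7 of 18 settings, without a count filter and without each of the 6 siRNA libraries in turn (adjusted p = 0.054 to 0.12). LIF, a cytokine of the interleukin-6 family, was the 1 that rose, from 148 to 191 and 183 CPM. CSF1, the macrophage growth factor, fell from 11.02 to 7.38 and 6.19 CPM (log2 -0.58 and -0.83, adjusted p = 0.0046 and 0.00046). EBI3, a subunit of interleukin-27 and interleukin-35, fell from 2.13 to 1.11 and 0.922 CPM (log2 -0.95 and -1.21, adjusted p = 0.017 and 0.0049). IL15 fell with siRNA 1, from 4.29 to 2.31 CPM (adjusted p = 0.016), and IL12A with siRNA 2, from 3.74 to 2.6 (adjusted p = 0.013). The siRNA 1 call of EBI3 was lost without control library 3, siRNA 1 library 1 or siRNA 1 library 2 (adjusted p = 0.067, 0.065 and 0.071). That of IL15 was lost without control library 2 or 3 or siRNA 1 library 1 or 3 (adjusted p = 0.056 to 0.064).

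The receptors of the members were in part not detected. CCR6, the receptor of CCL20, was at 0 in all libraries, and CXCR1 and CXCR2 had at most 14 counts a library, too few to be tested. Of the 9 tested of 14 receptors, decoys and binding proteins, 1 was higher and 1 lower with siRNA 1, 0 higher and 1 lower with siRNA 2, and 1 higher and 1 lower with siRNA 1 than with siRNA 2. The shares of all genes tested, given above, were 15.7% and 14.8%, 14.2% and 12.6%, and 8.09% and 9.83%. Of those not called, PRTN3, IL1R1 and F2RL1 were higher with siRNA 1 than in control at an unadjusted p below 0.05, PRTN3 was higher with siRNA 2, and IL1R1 was higher with siRNA 1 than with siRNA 2. The median log2 change was 0.17 with siRNA 1 and 0.03 with siRNA 2. IL1RAP, the shared signalling chain for IL1A, fell from 17.8 CPM to 10.9 with siRNA 1 and 14.1 with siRNA 2 (adjusted p = 0.00019 and 0.025). The siRNA 2 call was lost without control library 3 or siRNA 2 library 2 or 3 (adjusted p = 0.092, 0.092 and 0.073). SIGIRR, an inhibitory receptor of the family, had 24.4, 28.98 and 24.3 CPM and rose with siRNA 1 (adjusted p = 0.016), a call lost without control library 3 or siRNA 1 library 1 or 3 (adjusted p = 0.074, 0.063 and 0.076). IL18BP, the soluble decoy of IL18, had 18.2, 20.4 and 20.2 CPM and IL1R1 had 18.8, 21.1 and 18.7 CPM, neither called.

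Of 19 genes for processing and release of the members, 15 were tested: 1 rose and 6 fell with siRNA 1, and 1 rose and 7 fell with siRNA 2, with a median log2 change of -0.20 in both. Between the siRNAs 2 were higher and 2 lower with siRNA 1. Of all genes tested, 15.7% were higher and 14.8% lower with siRNA 1, 14.2% and 12.6% with siRNA 2, and 8.09% and 9.83% between the siRNAs. CASP1, which cleaves the IL18 precursor, was too low to be tested. ADAM10, the sheddase of CXCL16, fell from 178 to 157 and 151 CPM, and ADAM17 from 80.7 to 70.2 and 70.1. CAPN1, a subunit of the calpain that can cleave the IL1A precursor, fell from 305 to 189 and 277 CPM (log2 -0.69 and -0.14). Its small subunit gene CAPNS1 fell from 204 to 126 CPM with siRNA 1 and had 207 CPM with siRNA 2, and the siRNAs differed (log2 -0.72, adjusted p = 5.7e-07). S100A13, which takes part in release of IL1A, fell from 43.9 to 32.7 and 34.0 CPM. NLRP1, an inflammasome sensor, had 13.6, 11.8 and 7.52 CPM, and CASP4, a caspase of the inflammasome, 15.0, 12.8 and 10.3, both called lower with siRNA 2. GSDMD, the pore protein through which IL18 can leave the cell, was the 1 that rose, from 41.8 to 51.1 and 50.6 CPM.

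Of 26 transcription regulators of chemokine promoters, all tested, 6 rose and 11 fell with siRNA 1, and 4 rose and 11 fell with siRNA 2, with medians of -0.11 and -0.15 on the log2 scale. Between the siRNAs 2 were higher and 1 lower with siRNA 1. The shares over all genes tested were again 15.7% higher and 14.8% lower with siRNA 1, 14.2% and 12.6% with siRNA 2, and 8.09% and 9.83% between the siRNAs. Among tested genes with a 3' UTR these shares were larger, 20.0% and 20.2%, 19.0% and 17.0%, and 10.6% and 13.8%. The other lists are to be read beside these larger shares too. Members and inhibitors of the NF-kB family were among those that fell. NFKBIA, the inhibitor that is itself an NF-kB target, fell from 38.1 to 22.3 and 19.9 CPM (log2 -0.77 and -0.94, adjusted p = 4.0e-06 and 1.5e-06). TNFAIP3, a feedback inhibitor, fell from 13.98 to 8.62 and 6.63 CPM, RELB, an NF-kB subunit, from 20.3 to 13.1 and 11.4, and NFKBIZ, a nuclear cofactor, from 9.38 to 5.71 and 5.70. RELA, which encodes the subunit p65, fell from 124 to 96.8 and 99.6 CPM, and NFKB1 was not called. The AP-1 gene FOSL2 fell from 177 to 119 and 135 CPM, while JUND rose from 72.8 to 99.0 and 87.3, FOS from 10.98 to 14.6 and 14.6, and EGR1 from 107 to 162 and 175. These are mRNA levels and say nothing of the activity of the proteins.

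Among decay factors and among innate receptors, the counts are to be read against the same shares of all genes tested. These were 15.7% higher and 14.8% lower with siRNA 1, 14.2% and 12.6% with siRNA 2, and 8.09% and 9.83% between the siRNAs. Of 15 decay and stability factors of AU-rich mRNA, all tested, 6 rose and 6 fell with siRNA 1, and 4 rose and 6 fell with siRNA 2, with median log2 changes of 0.04 and 0.03. Between the siRNAs 2 were higher and 3 lower with siRNA 1. ZFP36, which promotes decay of ATTTA-bearing mRNA, rose from 47.4 to 59.4 and 57.9 CPM, and its relative ZFP36L2 rose with siRNA 1 from 35.7 to 55.9 CPM and had 40.8 with siRNA 2. ZC3H12A, an endonuclease that cuts inflammatory mRNAs, fell from 14.2 to 9.37 and 8.77 CPM, and ZC3H12C from 28.1 to 20.7 and 22.2. Of 26 upstream receptors and adaptors of innate signalling, 24 were tested: 5 rose and 5 fell with siRNA 1, and 6 rose and 4 fell with siRNA 2, with median log2 changes of -0.01 and 0.02, and 1 was higher and 1 lower with siRNA 1 than with siRNA 2. TNFRSF1A, a receptor of TNF, fell from 116 to 84.8 and 87.4 CPM, TRAF2, its adaptor, rose from 18.7 to 24.5 and 27.5, TRAF5 rose with siRNA 1 from 14.7 to 20.4, with 15.4 under siRNA 2, and TLR6 rose from 4.72 to 6.19 and 6.71. IRAK2, a kinase of interleukin-1 receptor signalling, fell with siRNA 1 from 7.89 to 5.50 CPM (adjusted p = 0.017), a call lost without control library 2 (0.059) or siRNA 1 library 1 (0.068), and had 6.02 CPM with siRNA 2.

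**Figure D5:**
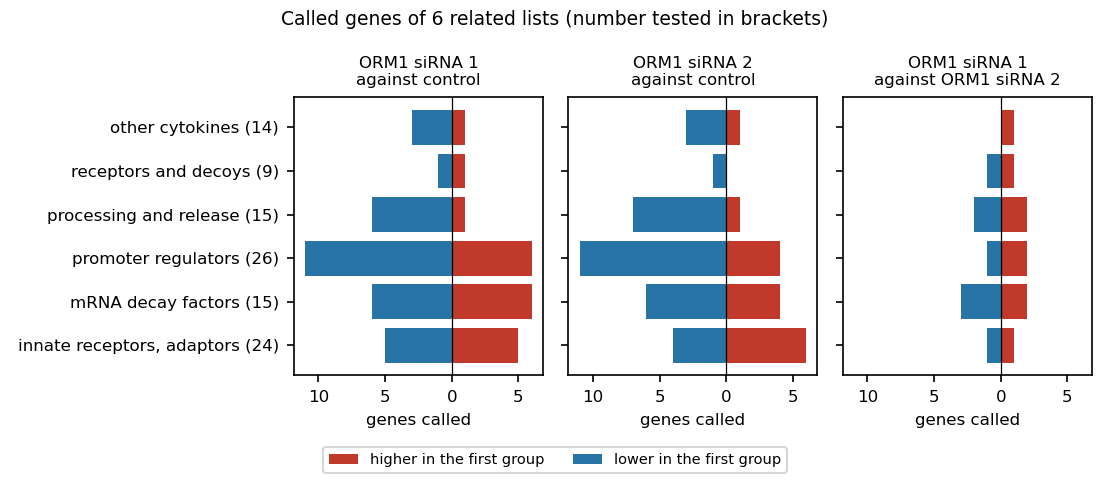
Number of genes called (x axis) in 6 related gene lists (rows, number tested in brackets), lower to the left in blue and higher to the right in red, for each siRNA against control and for siRNA 1 against siRNA 2. Among promoter regulators 11 are lower against control with each siRNA, and 3 are called between the siRNAs. Of all genes tested, 14.8% were lower with siRNA 1 and 12.6% with siRNA 2, and between the siRNAs 8.09% were higher and 9.83% lower. The count of 3 ranged from 3 to 9 over the settings other than a left-out library.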

How the data were processed

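RNA was sequenced from 9 libraries in 3 groups taken from the labels. The deposited table holds whole-number counts per Ensembl identifier, raw per the labels, and per the submitters' processing notes the build was hg19. The aligner, counter, annotation and strand setting were not given in the sources used here. Of the values from 1 to 40, 28.0% were multiples of 4, so 1 count need not stand for 1 fragment. Names, GRCh38 coordinates and exon lengths came from GENCODE release 29. Genes were kept by filterByExpr and scaled by TMM (factors 0.985 to 1.014), and the 9 libraries were fitted together by group with edgeR 4.0.16 in R 4.3.3 (quasi-likelihood), with Benjamini-Hochberg adjustment over 20932 genes and calls below 0.05. SEs were taken as the log2 change divided by the root of the F statistic. The script was tested on simulated data. Alternatives were DESeq2 1.42.0, limma-voom (limma 3.58.1), other scalings and filters, fits of the groups compared alone, a replicate block and each library left out. Same-numbered libraries of different groups did not deviate together over the genes fitted (r from -0.024 to 0.015 over 9 pairs), and the main fit used no pairing. A correlation over all these genes cannot exclude pairing in a part of them. Members and gene lists were chosen with earlier results of these data known. From each list, up to 3 called genes with the largest log2 change and at least 1 CPM were named per comparison, and a few others, among them LIF, GSDMD, ADAM10, ADAM17, RELA, FOS, EGR1, IL1RN, IL18BP, IL1R1, NFKB1, PRTN3 and F2RL1, were named after their values were seen. The limit that a count of 0 allows covers counting error only, whereas the intervals of log2 changes come from the fit and include scatter between libraries.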

Additional observations from a re-analysis of the deposited data

Results flagged for a closer look

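The genes here were picked out because the siRNAs differed from each other by edgeR's quasi-likelihood test of that difference. From each list, up to 3 called genes with the largest change are given. CASP4, KHSRP and TIAL1 were also called and are left out by that limit. Values are log2 changes, siRNA 1 minus siRNA 2. Of the members it was IL18 (-0.16, lower in 3 of 3 siRNA 1 libraries than in any siRNA 2 library). Of the receptors it was IL1RAP (-0.37) and SIGIRR (0.25), of the cytokines IL12A (0.47), and of the processing genes CAPNS1 (-0.72), CAPN1 (-0.55) and NLRP1 (0.65). Of the promoter regulators it was FOSL2 (-0.18), JUND (0.18) and NFKB2 (0.16), and of the decay factors ZFP36L2 (0.45), TIA1 (0.30) and ELAVL1 (-0.12). Of the innate receptors and adaptors it was TRAF5 (0.41) and IRAK1 (-0.27). The calls of IL1RAP (without siRNA 1 library 3, adjusted p = 0.085, or siRNA 2 library 1, 0.080), SIGIRR (without siRNA 1 library 1 or 3 or siRNA 2 library 1 or 2, 0.057 to 0.099) and ELAVL1 (with total count only or without siRNA 1 or siRNA 2 library 3, 0.057 to 0.069) were lost. That of IL12A was lost without a count filter and without each of the 6 siRNA libraries in turn (0.054 to 0.12).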

How the results depend on the processing

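The count of genes called was 6389 with siRNA 1, 5597 with siRNA 2 and 3752 between the siRNAs. Over the 9 other settings it ranged from 5506 to 6889, 4803 to 6143 and 3031 to 4458, and with a library left out from 5331 to 6368, 4699 to 5397 and 2695 to 3749. With the replicate block the counts were 6452, 5589 and 3794, and the block changed no call of a member between the siRNAs (IL18 adjusted p = 0.035). CXCL8, CXCL16, IL18 and CXCL3 moved by less than the spread between libraries against control under every setting run. CCL20 moved most: with siRNA 1 to -3.42 under the block and to -2.38 and -2.36 without siRNA 1 library 1 or 3, and with siRNA 2 to -4.49 in limma-voom, -4.28 without control library 1, -3.57 without siRNA 2 library 2 and -4.87 without siRNA 2 library 3. With siRNA 1, CXCL2 moved to -2.27 without siRNA 1 library 1. The causes were not tested. Of the lists, promoter regulators between the siRNAs had 3 calls, and 9 in DESeq2, 7 when only those groups were fitted, 6 without control library 1 or 3, and 5 in limma-voom, with total count only, with at least 1 CPM in 3 libraries and under the block. Decay factors between the siRNAs had 5 calls and 3 with total count only. Cytokines with siRNA 1 had 4 calls and 2 without control library 3 or siRNA 1 library 1, and between the siRNAs 1, and 0 without a count filter, without each siRNA 1 library in turn and without siRNA 2 library 1 or 2. Receptors had 2 calls with siRNA 1, 1 with siRNA 2 and 2 between the siRNAs, and 1, 0 and 0 to 1 without the libraries named for IL1RAP and SIGIRR. CXCL1, CXCL2, CXCL3, CCL20 and IL1A had at most 216 counts in a library, and the part of depth and of scatter between libraries in their wide intervals was not tested.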

Other observations

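The sequence words that CXCL8 and its neighbours carry were also counted in the rest of the table, with the 9 members left out, as a description with no test. GGAATTTCC lay in the promoter window of 70 tested genes, of which 19 (27.1%) were called lower and 8 (11.4%) higher with siRNA 1, and 16 (22.9%) lower and 9 (12.9%) higher with siRNA 2. Among all 12744 tested genes with a promoter window, 18.8% were lower and 19.0% higher with siRNA 1, and 15.7% lower and 18.0% higher with siRNA 2. At least 3 copies of TATTTAT lay in the 3' UTR of 795 tested genes, of which 223 (28.1%) were lower and 160 (20.1%) higher with siRNA 1, and 211 (26.5%) lower and 131 (16.5%) higher with siRNA 2. Among the 14145 tested genes with a 3' UTR, 20.2% were lower and 20.0% higher with siRNA 1, and 17.0% lower and 19.0% higher with siRNA 2. The median log2 changes were small, -0.07 and -0.06 for the first set and -0.04 and -0.07 for the second. Between the siRNAs, 18.6% of the GGAATTTCC genes were lower and 11.4% higher with siRNA 1, beside 13% and 9.69% of genes with a promoter window, and 13.6% of the TATTTAT genes were lower and 13.7% higher, beside 13.8% and 10.6% of genes with a 3' UTR. The comparison genes were not matched for UTR length. The comparisons with control share the 3 control libraries.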
